A study of Mus musculus with 6 samples.

Results

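Peaks in LTR repeats are the binding sites of 3 V5-tagged KLF3 constructs whose centre lay in a long terminal repeat (LTR) element, as marked in the detailed annotation of each deposited peak list. By this rule 507 of 14115 KLF3 peaks, 656 of 12248 ΔDL peaks and 272 of 4955 DBD peaks were members, or 1435 of the 31318 peaks in the 3 merged lists. The rule did not use any measured value. The cells were C57BL/6 murine embryonic fibroblasts (MEFs) that carry no Klf3 of their own (Klf3-/-), in every group. They were rescued by retroviral (MSCV) transduction and puromycin selection carrying one of 3 constructs, namely full length KLF3, ΔDL, whose CtBP contact motif is mutated (CtBP being a corepressor), and DBD, a shortened protein made of the zinc fingers plus a putative nuclear localization signal. Each rescue was a stable clonal line, so a difference between constructs cannot be told apart from a difference between clones. DNA from ChIP (chromatin immunoprecipitation) against the V5 tag was sequenced in duplicate, with 2 replicates per construct. A merged list holds the peaks that the authors found in both replicates, and input libraries entered only through their peak calling. Whether the replicates came from separate cultures was not given in the sources used here, so the spread between them may be technical.

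LTR retrotransposons are copies of former and active retroviral-like elements. A complete element has an internal part with the viral genes between identical LTRs, and the LTR is the part that carries the promoter and enhancer sequence. Recombination between both LTRs of an element often leaves a solitary LTR, so that most copies in a mouse genome are LTRs without an internal part. Transcription factors can bind such copies, because copies of a subfamily start out with the same sequence and therefore with the same factor sites. KLF3 is a repressor of the Krüppel-like family whose C-terminal zinc fingers bind CACCC boxes and related GC-rich sites.

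Some subfamilies in the KLF3 list carried a stretch shared between copies near the peak centre. These copies are shown first because the differences between constructs described further on were seen at such sites. For every subfamily with at least 8 KLF3 peaks the most frequent 12-base word in the central 200 bp was found, and words and copies were chosen after seeing the data, so no test was made. Of the 13 subfamilies, 4 are shown as examples. Sharing was lower in some others, such as 4 of 20 MTD, 3 of 19 RMER15, 2 of 19 ORR1E, 2 of 12 MTEa and 2 of 8 MT2A peaks. It was higher than in the displayed ORR1C2 in ORR1C1 (9 of 22), RMER6D (4 of 8) and ORR1D2 (3 of 8), which are not in this set. Sequences are from mm9, and the capitals mark the word. In ORR1C2, a member of the mammalian apparent LTR retrotransposons (MaLR), the word GAATGCTTAGTC was in 10 of 38 KLF3 peaks, against 9 of 469 KLF3 peaks in other LTR repeats and 1 of 8822 other intronic and intergenic KLF3 peaks.
ORR1C2 copy nearest Atf6, chr1:172760132-172760171, forward strand: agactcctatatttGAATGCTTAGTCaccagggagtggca
ORR1C2 copy nearest 4921525O09Rik, chr13:52157511-52157550, reverse strand: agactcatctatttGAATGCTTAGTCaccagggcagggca
ORR1C2 copy nearest Osbpl3, chr6:50444785-50444824, reverse strand: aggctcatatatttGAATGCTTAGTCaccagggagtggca

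In ORR1B2, a MaLR subfamily too, the word was CAAGGCCACACC, which completes a CACCC box where a further C follows. It was in 9 of 16 KLF3 peaks of ORR1B2, 20 of 491 in other LTR repeats and 7 of 8822 other intronic and intergenic peaks.
ORR1B2 copy nearest Lrrc8c, chr5:105928424-105928463, reverse strand: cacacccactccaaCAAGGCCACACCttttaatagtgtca
ORR1B2 copy nearest Katnal1, chr5:149748457-149748496, reverse strand: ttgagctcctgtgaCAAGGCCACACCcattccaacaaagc
ORR1B2 copy nearest Slc25a3, chr10:90601239-90601278, forward strand: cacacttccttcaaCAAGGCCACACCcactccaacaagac

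RMER6C and RLTR17 belong to the ERVK family, and their words contain TGAGTCA or its complement TGACTCA, the site of the AP-1 dimers of Fos and Jun proteins. In RMER6C the word ATGAGTCAGAGA was in 8 of 16 KLF3 peaks, 3 of 491 in other LTR repeats and 6 of 8822 other intronic and intergenic peaks. In RLTR17 the word CTCTGACTCAGA was in 5 of 9 KLF3 peaks, 0 of 498 in other LTR repeats and 11 of 8822 others.
RMER6C copy nearest Nmd3, chr3:69516026-69516065, forward strand: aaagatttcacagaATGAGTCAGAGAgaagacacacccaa
RMER6C copy nearest As3mt, chr19:46792812-46792851, reverse strand: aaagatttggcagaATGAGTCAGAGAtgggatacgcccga
RMER6C copy nearest Ppfia2, chr10:106212812-106212851, forward strand: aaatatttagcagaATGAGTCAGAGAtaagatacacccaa
RLTR17 copy nearest Ptprq, chr10:107069771-107069810, reverse strand: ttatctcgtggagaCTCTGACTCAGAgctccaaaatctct
RLTR17 copy nearest Spred2, chr11:19748555-19748594, reverse strand: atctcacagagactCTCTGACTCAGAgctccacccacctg
RLTR17 copy nearest Gm9758, chr5:14728912-14728951, forward strand: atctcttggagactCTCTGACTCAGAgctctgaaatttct

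Each of these 12 copies had more KLF3 tags than DBD tags. At the ORR1C2 copy in intron 7 of Atf6, for example, the heights were 709 KLF3, 352 ΔDL and 41.9 DBD tags. At the ORR1B2 copy nearest Lrrc8c they were 596, 258 and 26.2 tags, at the RMER6C copy nearest Nmd3 367, 405 and 87.4 tags, and at the RLTR17 copy in intron 25 of Ptprq 343, 198 and 49.2 tags. The copies were taken from the KLF3 list, so that KLF3 is high there follows from the choice. In the RMER6C copies shown, a CACCC-like stretch follows the AP-1 word at the same distance. A KLF match began 17 bases after the start of TGAGTCA in 9 of the 29 KLF3 peaks in RMER6 repeats (internal parts left out), in 0 of 478 KLF3 peaks in other LTR repeats and in 6 of 8822 other intronic and intergenic peaks. TGAGTCA itself was in 18, 134 and 2031 of these peaks. The offset of 17 was the most common in the RMER6 peaks themselves, so their lead at it follows from the choice. Most common elsewhere were 30 bases in other LTR peaks (3 peaks) and 13 in other intronic and intergenic peaks (14 peaks).

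The second set shows the central 100 bases of 5 single peaks, which illustrate sites with and without KLF and AP-1 matches. A KLF match is either a CACCC form, which may be ACACCC or alternatively CCACCC, or a GC-box form, which may be ACGCCC or alternatively CCGCCC. An AP-1 match is TGAGTCA, and both strands were read. Capitals mark the matches, and a match describes letters, not a bound site.
ORR1C1 nearest Gipc2, chr3:151785782-151785881, forward strand: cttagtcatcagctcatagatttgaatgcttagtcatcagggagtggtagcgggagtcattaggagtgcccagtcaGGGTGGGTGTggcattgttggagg
ORR1A2 nearest Disc1, chr8:127777483-127777582, forward strand: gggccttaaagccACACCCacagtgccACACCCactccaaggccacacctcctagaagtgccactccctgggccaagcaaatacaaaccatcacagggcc
RMER15 nearest 4930449E01Rik, chr14:106015171-106015270, forward strand: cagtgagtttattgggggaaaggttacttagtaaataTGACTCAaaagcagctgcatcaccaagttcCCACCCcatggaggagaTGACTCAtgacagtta
MTD nearest Fam181b, chr7:101305508-101305607, forward strand: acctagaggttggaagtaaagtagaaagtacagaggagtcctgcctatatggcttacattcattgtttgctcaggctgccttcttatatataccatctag
RMER6-int nearest Manea, chr4:26084275-26084374, forward strand: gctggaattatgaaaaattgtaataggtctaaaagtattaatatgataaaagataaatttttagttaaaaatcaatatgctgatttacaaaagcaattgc

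The ORR1C1 peak in intron 3 of Gipc2, which is the highest LTR peak of the KLF3 list, holds a KLF match and beside it the stretch gaatgcttagtc that ORR1C2 copies share. The MTD peak nearest Fam181b and the peak in the internal part of an RMER6 element nearest Manea were called in all 6 replicate lists and have neither match in these bases. Their heights are given below with those of the other named peaks.

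The depth behind the lists differed. The tags behind the scores of a replicate list, inferred from the score that a single tag is worth and not the same as mapped reads, numbered between 1.77 M for ΔDL replicate 1 and 18.1 M for KLF3 replicate 2, and the median LTR peak rested on 6 to 17 tags. Heights are the authors' log2 tags in 400 bp, counted in both replicates together and scaled to 100 M tags, so they have no replicate error. In heights a single tag was worth 4.29 for KLF3, 8.45 for ΔDL and 6.23 for DBD. Intervals given on shares are 95% Wilson intervals over peaks and cover counting error only, since peaks are not replicates.

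LTR peaks made up a smaller share of the KLF3 list than of the mutant lists, and the replicate groups overlapped when promoter and exon peaks were set aside. Of all merged peaks 3.59% (3.30 to 3.91) lay in LTRs in the KLF3 list, 5.36% (4.97 to 5.77) in that of ΔDL and 5.49% (4.89 to 6.16) in that of DBD. In the replicate lists the shares were 4.39% and 3.55% in KLF3, 5.04% and 4.96% in ΔDL, and 5.49% and 5.06% in DBD. Both KLF3 lists lay below the other 4 lists. The means were 3.97% ± 0.594 (SD, n = 2), 5.00% ± 0.0581 and 5.28% ± 0.308. An exact permutation test of any difference among the 3 groups, over the 90 assignments of the 6 lists, gave p = 0.0667, which is the smallest p this design allows, so 0.05 could not be reached.

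The annotation assigns a peak to a promoter or exon before it looks for repeats, and 0 LTR peaks were annotated to a promoter. All LTR peaks were therefore intronic or intergenic, and the share of such peaks is the like-for-like measure. Of intronic and intergenic peaks, LTR peaks were 5.75% and 5.51% in the KLF3 replicates, 5.63% and 6.15% in ΔDL, and 5.77% and 5.37% in DBD. These groups overlapped, with means of 5.63% ± 0.165, 5.89% ± 0.364 and 5.57% ± 0.283 (SD, n = 2) and an exact permutation p of 0.667. In the merged lists the shares were 5.43%, 6.05% and 5.73%, with KLF3 still the lowest. LINE repeats, the other large retrotransposon class, ran differently, with 5.11% of KLF3, 11.2% of ΔDL and 12.4% of DBD intronic and intergenic peaks. As a result LTR peaks were 30.3% of KLF3 peaks in any repeat, but 23.1% for ΔDL and 21.3% for DBD.

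**Figure D1:**
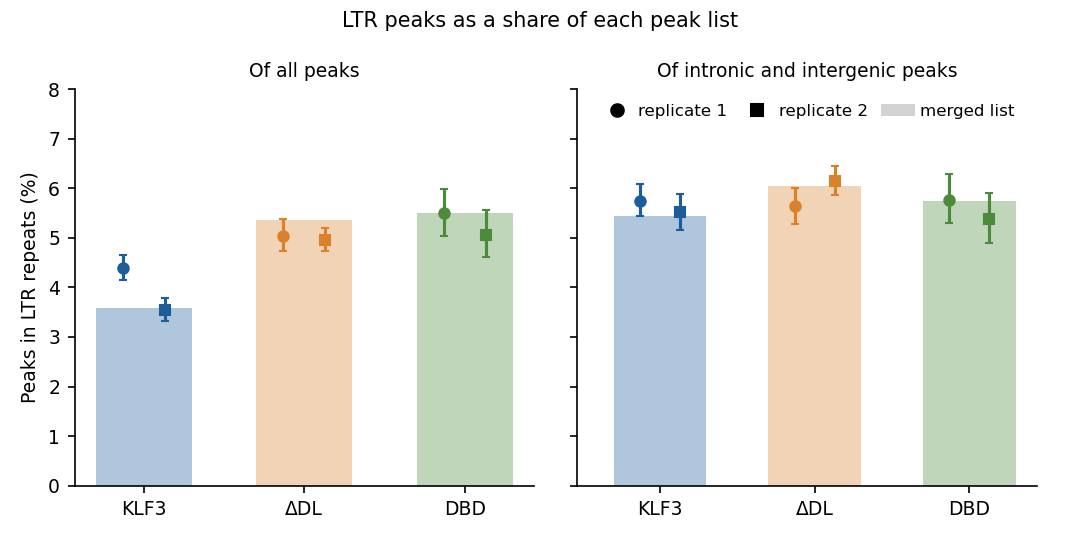
The vertical axis gives peaks in LTR repeats as a percent of all peaks (left) or of intronic and intergenic peaks (right) for KLF3, ΔDL and DBD. Bars are merged lists, circles and squares are replicates 1 and 2 with 95% Wilson intervals. On the left both KLF3 replicates lie below the other 4 lists, at 4.39% and 3.55%, and on the right the 3 groups overlap between 5.37% and 6.15%.

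LTR peaks lay mostly between genes. Intergenic peaks were 69.6% of KLF3, 74.5% of ΔDL and 77.9% of DBD LTR peaks, against 52.7%, 60.05% and 62.1% of the other intronic and intergenic peaks. The median distance to a transcription start site (TSS) was 41.5 kb, 83.2 kb and 91.1 kb, against 31.5 kb, 68.2 kb and 85.3 kb for the others. Few LTR peaks were close to a start. Within 1 kb of a TSS, KLF3 had an MTC peak in intron 1 of Ckap2 (chr8:23295339-23295739, 311 tags) and an MTEa peak in intron 1 of Nek2 (chr1:193645716-193646116, 231 tags), which encodes a kinase of the centrosome. ΔDL had 2 such peaks, an RMER6A copy in intron 1 of 4930598F16Rik with 158 tags and an ORR1A4-int copy in intron 1 of Chit1, a chitinase gene, with 94.4 tags. DBD had 0.

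Nearly all LTR peaks of each construct fell into 4 families, the rest being 2, 1 and 1 Gypsy peaks and 2, 1 and 1 peaks with no family beyond LTR for KLF3, ΔDL and DBD. MaLR elements, which are non-autonomous relatives of ERVL, were 50.7% of KLF3, 47.9% of ΔDL and 49.6% of DBD LTR peaks. ERVK, the family of the intracisternal A particles and early transposons, was 23.5%, 30.8% and 30.5%. ERVL was 16.4%, 12.2% and 10.7%, and ERV1 was 8.68%, 8.84% and 8.46%. Across replicate lists ERVL was 13.4% and 14.7% for KLF3, 12.8% in both ΔDL lists, and 10.3% and 11.7% for DBD, groups that did not overlap. ERVK was 28.1% and 21.3% in KLF3, 30.5% and 29.8% in ΔDL, and 32.01% and 29.5% in DBD, and MaLR was 49.3% and 55.3%, 48.2% and 48.0%, and 48.3% and 50.2%. The ERVK and MaLR differences rested largely on KLF3 replicate 2: without it ERVK was higher than in KLF3 by 2.12 points in ΔDL and 2.70 in DBD rather than 5.48 and 6.06, and the MaLR differences were −1.25 and −0.0427 points rather than −4.24 and −3.04. The exact permutation p of the comparison of 3 groups was 0.0667 for ERVL, 0.2 for ERVK, 0.267 for MaLR and 0.8 for ERV1, and the Benjamini-Hochberg adjusted values over the 4 families were 0.267, 0.356, 0.356 and 0.8. No family share passed 0.05, which this design cannot reach.

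Within the families the split was between LTRs and internal parts. Names that end in -int mark the internal part of an element. Such peaks were 12.4% (63 of 507) of KLF3, 25.6% (168 of 656) of ΔDL and 27.6% (75 of 272) of DBD LTR peaks. In the replicate lists they were 16.6% and 11.8% in KLF3, 25.7% and 21.2% in ΔDL, and 27.6% and 28.8% in DBD, so both KLF3 lists lay below the other 4. This grouping was made after seeing the data, so no test was run.

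The merged lists held LTR peaks of 229 repeat names. Joining the lists gave 1000 LTR sites in the table of all peaks, and 966 of them were annotated to an LTR in every list that held them. The 8 names with most sites, MTD, ORR1C2, ORR1E, RMER15, ORR1C1, RMER5, MTEa and MTE2a, took 241 sites (24.1%), and 83 names had 1 site only. Members were thus spread over many subfamilies rather than drawn from a single one. Of names with at least 5 peaks in a single merged list, 21 differed over 3-fold in share between at least a pair of lists. The highest share was in KLF3 for 10, in ΔDL for 8 and in DBD for 3. Many of these counts are below 10.

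The ORR1 group of MaLR elements was the largest on the KLF3 side. ORR1C2 had 38 KLF3, 17 ΔDL and 2 DBD peaks, or 7.495%, 2.59% and 0.735% of LTR peaks. In the replicate lists its counts were 58 and 62 in KLF3, 24 and 62 in ΔDL, and 5 and 6 in DBD. ΔDL replicate 2 thus held as many ORR1C2 peaks as a KLF3 replicate, but among more LTR peaks (1619, against 1176 and 848). As shares ORR1C2 was 4.93% and 7.31% in KLF3 and 2.76% and 3.83% in ΔDL, so both ΔDL lists were lower. The low merged count for ΔDL went with the low count in replicate 1, the list with the fewest tags. ORR1C1 had 22, 7 and 4 peaks, and ORR1B2 had 16, 4 and 2. Over all ORR1B and ORR1C names, internal parts left out, the replicate shares were 10.7% and 16.04% in KLF3, 5.88% and 8.89% in ΔDL, and 4.37% and 3.17% in DBD, which were ordered without overlap. ORR1E had 19, 15 and 4 peaks, and ORR1A2 had 6, 0 and 2.

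Other names with their highest share in KLF3 were RLTR17 with 9, 2 and 1 peaks, RMER6D with 8, 2 and 0, MER21B with 7, 0 and 0, RMER10A with 6, 4 and 1, MLT1K with 5, 3 and 0, and RMER6A with 4, 5 and 0. As counts, ΔDL was low in replicate 1 alone, although replicate 2 held the most LTR peaks of any list. ΔDL replicates 1 and 2 held 3 and 15 RLTR17, 3 and 16 RMER6D, and 2 and 8 MER21B peaks. The KLF3 replicates held 15 and 19, 10 and 8, and 9 and 8. ORR1C1 had 9 and 39 in ΔDL and 28 and 34 in KLF3, and ORR1B2 6 and 22 against 27 and 21. DBD lists held at most 5 of any of these 5 names. As shares of LTR peaks, ΔDL replicate 2 was below both KLF3 replicates for RLTR17 (0.926% against 1.28% and 2.24%). The same held for MER21B (0.494% against 0.765% and 0.943%) and ORR1B2 (1.36% against 2.30% and 2.48%). For RMER6D, ΔDL replicate 2 was above both (0.988% against 0.850% and 0.943%). For ORR1C1 it lay between, at 2.41% against 2.38% and 4.01%. The ERVL subfamily RMER15 had 19, 13 and 4 peaks. RMER6 names together, internal parts left out, were 5.27% and 4.13% of LTR peaks in the KLF3 replicates, 2.30% and 4.32% in ΔDL, and 1.19% and 1.71% in DBD. Here the KLF3 and ΔDL groups overlapped.

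MT elements and internal parts took larger shares of the merged mutant lists, with exceptions named here. MTD had 20 KLF3, 39 ΔDL and 23 DBD peaks, or 3.94%, 5.95% and 8.46% of LTR peaks. Its replicate shares were 4.68% and 4.36% in KLF3, 5.65% and 4.32% in ΔDL, and 8.15% and 7.56% in DBD, so KLF3 and ΔDL overlapped and DBD lay above both. Names from MTA to MTE together, without MT2 names and internal parts, were 13.6% and 12.97% in the KLF3 replicates, 15.3% and 13.8% in ΔDL, and 19.3% in both DBD lists. MTE2a, with 4, 15 and 7 peaks, followed the same order. The internal parts over 3-fold were RMER16-int with 2, 10 and 5 peaks, MYSERV16_I-int with 1, 8 and 3, MurERV4-int with 0, 6 and 2, ORR1D2-int with 1, 6 and 2, ETnERV2-int with 1, 5 and 2, ORR1E-int with 1, 5 and 3, ORR1A4-int with 1, 5 and 1, and MERVL_2A-int with 2, 5 and 0, which was lowest in DBD. Of LTRs, RMER4B (1, 8 and 2) and RLTR15 (0, 5 and 0) had their highest merged share in ΔDL. Several of these contrasts rested on KLF3 replicate 2. The KLF3 replicates held 8 and 1 ETnERV2-int, 7 and 1 MYSERV16_I-int, 11 and 4 RMER4B and 4 and 1 RLTR15 peaks, and the ΔDL replicates 8 and 12, 11 and 15, 9 and 15, and 5 and 8. For MERVL_2A-int the counts were 8 and 7 in KLF3 and 6 and 20 in ΔDL, so ΔDL replicate 2 set it apart. RMER5 (12, 14 and 5) and MTEa (12, 16 and 6) had similar shares in the 3 lists.

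**Figure D2:**
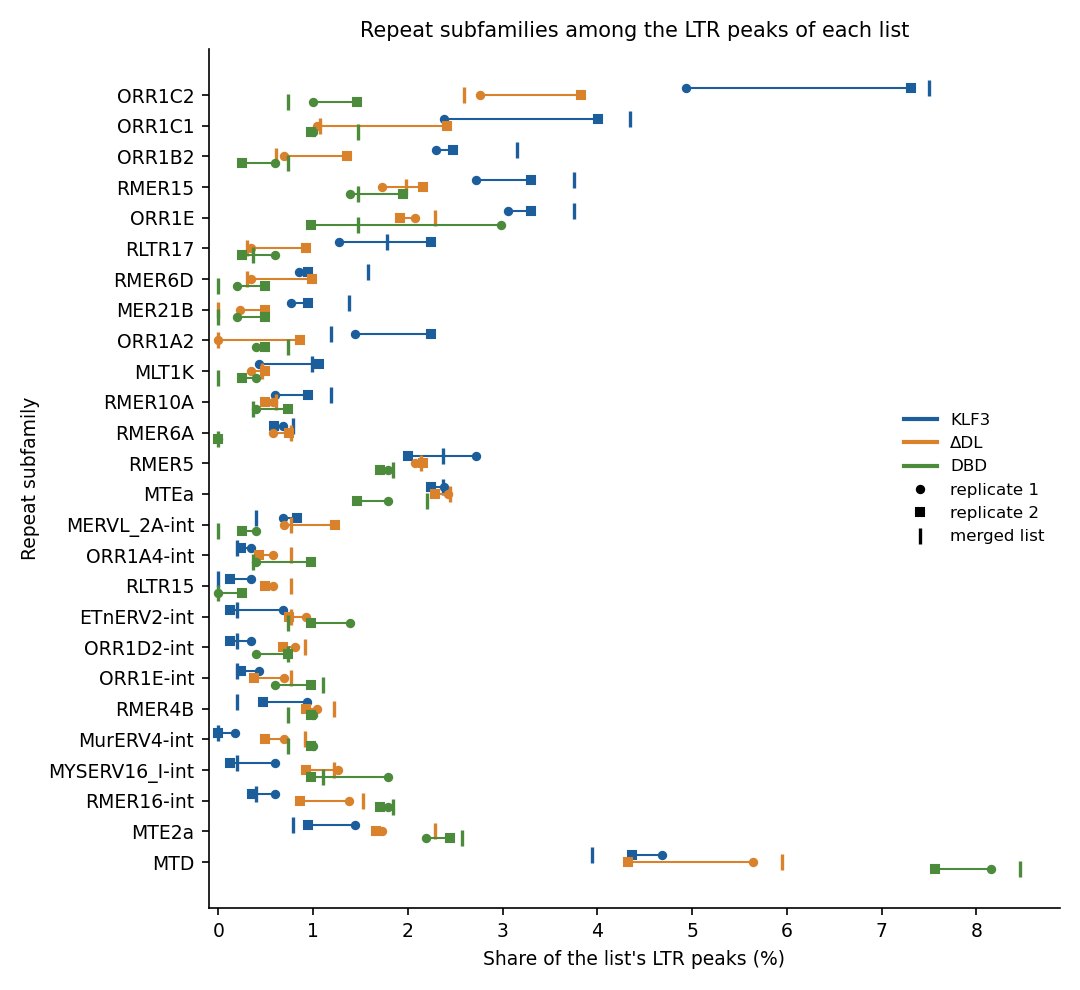
The horizontal axis gives the share (%) of a list's LTR peaks that each named repeat subfamily (vertical axis) takes, for KLF3, ΔDL and DBD; circles and squares are replicates 1 and 2 joined by a line, and bars are merged lists. ORR1C2, at 7.495%, 2.59% and 0.735% in the merged lists, and MTD, at 3.94%, 5.95% and 8.46%, run in opposite order.

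LTR peaks were somewhat lower than other intronic and intergenic peaks. The median height in the merged lists was 180 against 207 tags for KLF3, 179 against 191 for ΔDL, and 143 against 150.1 for DBD. On the log2 scale these medians were 7.49 and 7.69, 7.49 and 7.58, and 7.16 and 7.23. In the replicate lists the median log2 score of LTR peaks was lower by 0.17 and 0.16 for KLF3, equal and lower by 0.14 for ΔDL, and equal in both DBD lists. The mean difference was −0.08 ± 0.09 (SD, n = 6 lists), with an exact sign-flip permutation p of 0.25 (two-sided, adjusted 0.25). Lists with equal medians have no sign to flip, and all others were lower, so 0.25 was the smallest p possible here. The medians rested on few whole tags, so this p cannot show that the heights were alike.

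In the merged lists G+C content differed more between constructs than between LTR peaks and others. The median G+C content of LTR peaks was 44.4% for KLF3, 41.1% for ΔDL and 40.1% for DBD, while the other peaks had 45.9%, 38.7% and 37.2%. LTR peaks thus spanned a narrower range between constructs than the others. In the replicate lists LTR peaks were higher by 0.813 percentage points in KLF3 replicate 1, 3.76 and 2.29 in ΔDL, and 4.58 and 4.72 in DBD, and were lower by 2.45 in KLF3 replicate 2. The mean difference of 2.29 ± 2.76 points (SD, n = 6 lists) had an exact sign-flip p of 0.125 (adjusted 0.167). Base conservation was lower in LTR peaks of each merged list, with mean PhastCons scores of 0.0711, 0.0517 and 0.0426 against 0.169, 0.0973 and 0.0835.

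**Figure D3:**
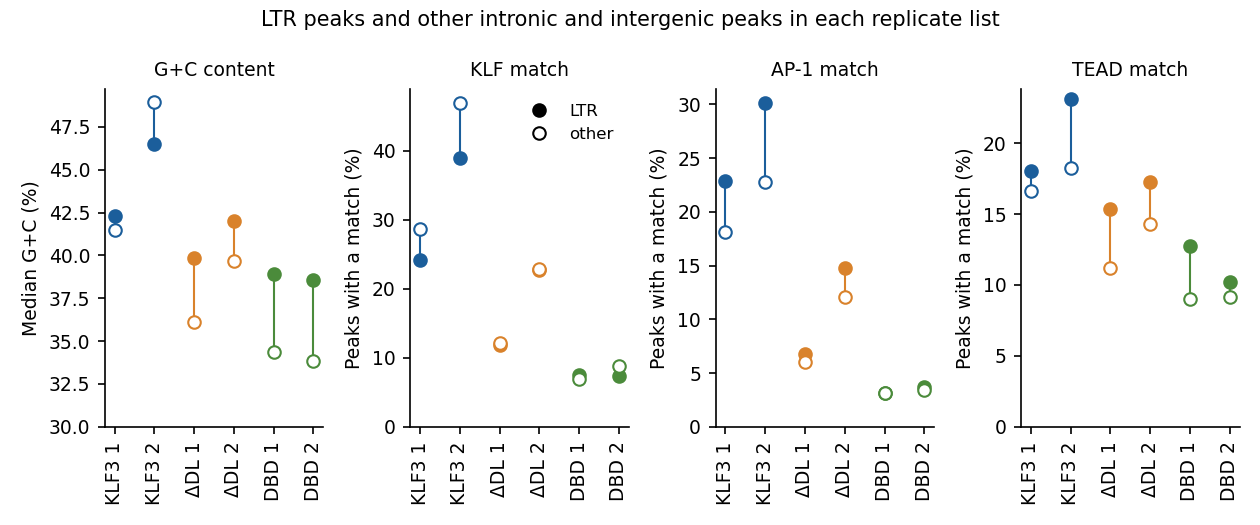
For each of the 6 replicate lists, filled circles give LTR peaks and open circles other intronic and intergenic peaks, with a line joining them (vertical axes: median G+C content in percent, on an axis that starts at 30, and percent of peaks with a KLF, AP-1 or TEAD match). The filled circle is above the open one in all 6 lists for AP-1 and TEAD, in 5 of 6 for G+C content and in 1 of 6 for KLF.

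KLF matches were frequent in LTR peaks of KLF3 and near the level of the flanks in those of DBD. In the central 100 bp, 36.3% of KLF3 LTR peaks held a match, against 10.7% in flanks 400 to 500 bp away, read on the side of higher coordinates only. The shares were 12.3% against 8.69% for ΔDL and 6.25% against 7.72% for DBD. The other intronic and intergenic peaks held a match in 45.6%, 13.9% and 6.78%. In the replicate lists LTR peaks held KLF matches in 24.2% and 38.9% (others 28.6% and 46.9%) for KLF3, 11.9% and 22.7% (12.1% and 22.9%) for ΔDL, and 7.55% and 7.32% (6.97% and 8.86%) for DBD. The LTR share was higher in 1 of 6 lists, with a mean difference of −2.30 points and an exact sign-flip p of 0.156 (adjusted 0.179). In the whole 400 bp this difference was 0.215 points, of the other sign.

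AP-1 matches were more frequent in LTR peaks than in others in 6 of 6 lists. In the central 200 bp, TGAGTCA was in 22.9% and 30.1% of LTR peaks (others 18.1% and 22.8%) in the KLF3 replicates, 6.80% and 14.8% (6.01% and 12.1%) in ΔDL, and 3.18% and 3.66% (3.13% and 3.46%) in DBD. The difference was 6.04 ± 1.77 points in KLF3 and 0.124 ± 0.103 in DBD (SD, n = 2 lists each). In DBD the excess rested on 16 of 503 and 15 of 410 LTR peaks. The merged DBD list ran the other way, with 2.94% of LTR peaks against 3.13% of others, unlike the merged KLF3 and ΔDL lists. Over the 6 lists the mean was 2.64 points. TEAD matches (GGAATG) were higher in LTR peaks by 3.04 points, RUNX matches (TGTGGTT) by 1.37 and CCAAT matches (CCAAT, then C or G, then A or G) by 1.44, each in 6 of 6 lists. The exact sign-flip p was 0.03125 for each of these 4, the smallest that 6 lists allow, and the adjusted value over 8 measures was 0.0625, so none passed 0.05. The lists share many peaks and so are not independent, which these p-values do not take into account. ETS matches (CCGGAAG) were lower by 0.480 points (exact p = 0.0938, adjusted 0.15). For CCAAT the merged KLF3 list ran the other way, with 6.71% of LTR peaks against 7.198% of others, unlike merged ΔDL and DBD. CCAAT shares of LTR peaks were below their flanks in KLF3 replicate 1 (6.89% against 7.65%) and DBD replicate 2 (6.83% against 8.54%). They were above them in the other replicate lists. TEAD was below its flanks in DBD replicate 2 only (10.24% against 10.49%), and RUNX in none.

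In the merged KLF3 list AP-1 matches were in 29.98% of LTR peaks (flanks 3.16%), and the share was 42.2% in ERVL, 38.7% in ERVK, 29.5% in ERV1 and 22.2% in MaLR peaks. The subfamilies differed in which match they held. RLTR17 had AP-1 matches in 8 and KLF matches in 7 of 9 KLF3 peaks, and RMER15 had 13 and 6 of 19. ORR1E had AP-1 matches in 6 and KLF matches in 11 of 19, ORR1B2 had 5 and 8 of 16, ORR1C2 had 6 and 16 of 38, and RMER10A had 2 and 5 of 6. MTD peaks of KLF3 held few of either, with 2 and 3 of 20. Of the 507 KLF3 LTR peaks, 65 held both matches and 236 neither.

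Peaks with matches were higher in KLF3. The 184 LTR peaks with a KLF match had a median of 226 tags, and the 323 without had 162. With an AP-1 match the median was 204 tags (152 peaks) and without 165, and with neither match it was 149.6 tags. Matches also sat near the peak centre. In KLF3 LTR peaks there were 21.5 and 25.6 KLF matches per 100 peaks in the central pair of 50-bp bins, against 7.30 in the outermost upstream bin, and for AP-1 7.89 and 15.8 against 1.78. In DBD LTR peaks the central bins held 4.04 and 2.21 KLF matches per 100 peaks.

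**Figure D4:**
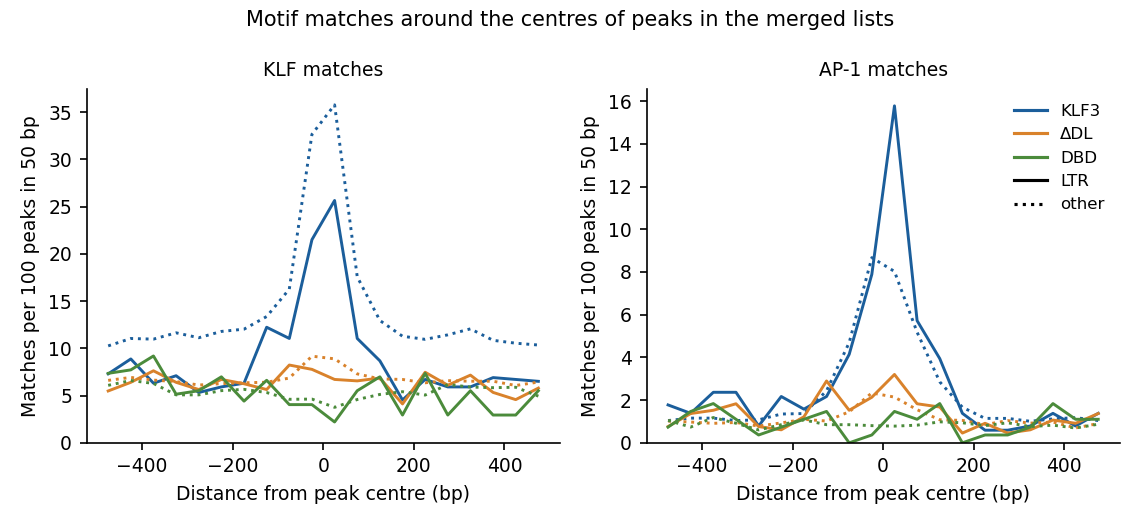
Matches per 100 peaks in 50-bp bins (vertical) are plotted against the distance from the peak centre in bp (horizontal), for KLF (left) and AP-1 (right). Solid lines are LTR peaks and dotted lines other intronic and intergenic peaks. KLF3 LTR peaks reach 25.6 KLF and 15.8 AP-1 matches at the centre, while the DBD lines stay near their flanks.

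Heights at the 1000 LTR sites split into groups when DBD was set against KLF3. DBD was at least 2-fold lower at 368 sites (36.8%), where all peaks gave 52.6%, and at least 2-fold higher at 35 (3.5%), where all peaks gave 3.27%. Only 35 sites (3.5%) had a difference between −1.5 and −0.5 on the log2 scale. At the 368 lower sites the median difference was −2.63 (quartiles −3.30 and −2.02), with median heights of 215 KLF3, 180 ΔDL and 37.5 DBD tags. At the other 632 sites it was 0.41 (quartiles 0.14 and 0.64), with 83.0 KLF3, 170 ΔDL and 111 DBD tags. A KLF match was at 183 (49.7%) of the lower sites and at 53 (8.39%) of the rest, and an AP-1 match at 150 (40.8%) and at 26 (4.11%). Either match was at 71.7% of the lower sites and 12.3% of the rest. The other intronic and intergenic sites divided alike, with 6518 of 15958 (40.8%) at least 2-fold lower in DBD and either match at 74.5% of these. There is no replicate error on heights, so no test was made, and this split was described after seeing the data. A site entered only by being called in a list, so the split and the match shares beside it depend on that choice. Of 519 LTR sites called for KLF3, 349 were at least 2-fold lower in DBD, and of 281 called for DBD, 0 were.

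At the 1000 LTR sites the median ΔDL difference from KLF3 was 0.83 on the log2 scale, against 0.42 over all 22188 peaks and 0.78 over other intronic and intergenic peaks. ΔDL was at least 2-fold higher at 369 sites (36.9%, all peaks 28.9%) and at least 2-fold lower at 74 (7.4%, all peaks 14.9%). These differences depended on the scaling. Heights at peaks called for all 3 constructs were higher than for KLF3 by a median of 1.06 for ΔDL and 0.42 for DBD, and with these medians set to 0, ΔDL was at least 2-fold higher at 5 LTR sites (0.5%, all peaks 0.397%) and lower at 273 (27.3%, all peaks 43%). The median ΔDL difference was then −0.23. For DBD the scaled counts were 1 higher (0.1%, all peaks 0.428%) and 378 lower (37.8%, all peaks 53.7%). The scaling takes the same amount from every site, so it moves the counts and medians but not the spacing between sites. Other intronic and intergenic sites were at least 2-fold lower in ΔDL at 9.78%, or 31.7% scaled, and in DBD at 40.8%, or 42.1% scaled, so on each scale the percent of LTR sites was below both that of these sites and that of all peaks.

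**Figure D5:**
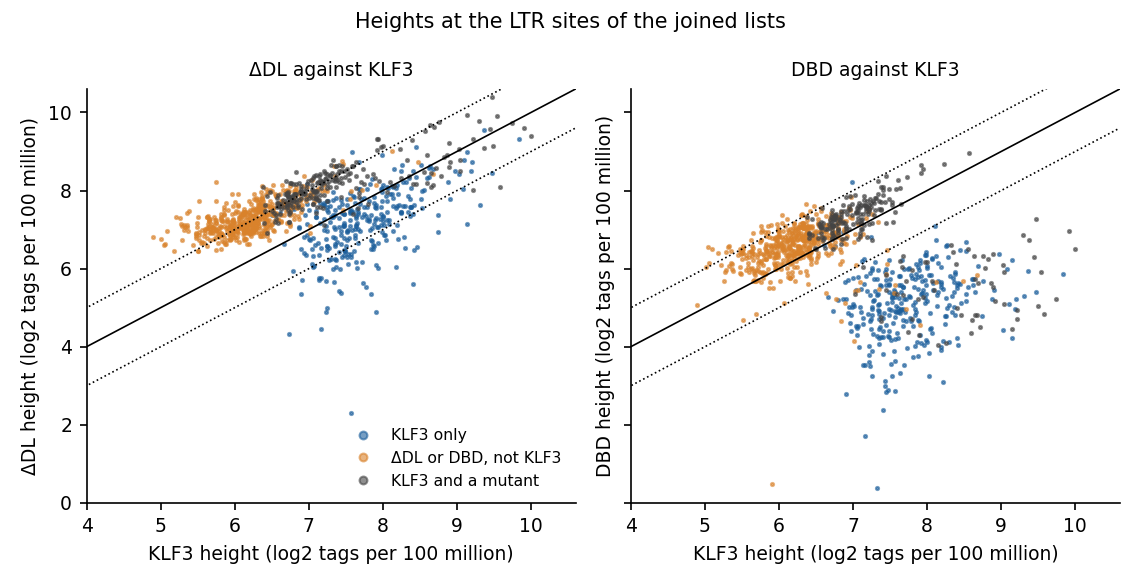
Heights of the 1000 LTR sites (log2 tags per 100 M) for ΔDL (left) and DBD (right) on the vertical axes are plotted against KLF3 on the horizontal axes. The solid line marks equal heights, dotted lines 2-fold, and colours the lists that hold a site. In the right panel 368 sites lie 2-fold or more below the line, apart from the rest.

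The subfamilies fell on both sides of this split. ORR1C2 sites had a median ΔDL difference of −0.09 and a DBD difference of −2.41, and 36 of 44 were at least 2-fold lower in DBD. ORR1B2 had −0.13 and −2.51 (19 of 21), and RMER6D had 0.03 and −2.55 (8 of 9). ORR1C1 had −0.535 and −2.67 (19 of 24), with 5 sites at least 2-fold lower in ΔDL too, and RLTR17 had −0.325 and −2.625 (8 of 10), with 3 such sites. MTD, MTE2a and several internal parts lay on the other side. MTD had medians of 1.02 and 0.36, with 6 of 48 sites at least 2-fold lower in DBD, and MTE2a had 1.1 and 0.45 (2 of 21). MurERV4-int had 1.34 and 0.62, MYSERV16_I-int 1.11 and 0.60, and ORR1D2-int 1.30 and 0.61, with 0 sites of these 3 at least 2-fold lower in DBD. RMER15 was mixed, with 16 of 28 sites lower and a range from −5.13 to 1.02, and so were RMER5, with 12 of 24, and MTEa, with 9 of 23 and a median of 0.04.

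Sites were also grouped by the lists that held them, which rest on the same tags as the split and so give no separate support. KLF3 alone listed 297 of the 1000 sites, with median heights of 201 KLF3, 158 ΔDL and 36.5 DBD tags, KLF matches at 49.2% and AP-1 matches at 41.1%. Of these 297 sites, 175 (58.9%) were called in ΔDL replicate 2 but 6 in replicate 1, and 4 and 5 in the DBD replicates. KLF3 and ΔDL shared 89 sites, with 237, 294 and 71.5 tags and KLF matches at 40.4%. Most LTR sites of the KLF3 list alone were thus called in the more deeply sequenced ΔDL replicate. Other intronic and intergenic sites divided much alike, with 33.1% listed by KLF3 alone and 8.89% by KLF3 and ΔDL, against 29.7% and 8.9% of LTR sites. Those of KLF3 alone held KLF matches at 57.8% and AP-1 matches at 30.3%, and 60.4% were called in ΔDL replicate 2.

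Sites held by the mutants looked different. All 3 constructs listed 130 sites, with 134, 271 and 174 tags, KLF matches at 4.62% and internal parts at 24.6%. ΔDL alone listed 333 sites (70.0, 143 and 84.4 tags, KLF matches at 11.4%), and ΔDL with DBD listed 126 (82.4, 184 and 125 tags, KLF matches at 5.56%). Of those 126 sites, 100 (79.4%) were called in KLF3 replicate 1 and 4 (3.17%) in KLF3 replicate 2. Absence from the merged KLF3 list thus rested on replicate 2 at most of them. The other intronic and intergenic sites of this kind, 1899 in number, were called in 1383 and 140 cases. DBD alone listed 22 LTR sites, and KLF3 with DBD 3.

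As shares of each list, 40.8% of KLF3 LTR peaks overlapped a ΔDL peak and 25.2% a DBD peak. Of ΔDL LTR peaks, 31.1% overlapped a KLF3 and 36.6% a DBD peak, and of DBD LTR peaks 46.3% overlapped a KLF3 and 90.8% a ΔDL peak. The same shares for other intronic and intergenic peaks were 39.6%, 24.4%, 34.3%, 39.4%, 48.2% and 89.6%. LTR peaks also recurred between replicates much as other peaks did, with 42.8% and 58.6% found in the other replicate for KLF3 (others 45.8% and 60.7%), 75.7% and 40.3% for ΔDL (70.0% and 41.2%) and 53.5% and 66.1% for DBD (54.5% and 61.9%).

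Reads in repeats can be hard to place, so the sequence under each peak was checked for 50-base windows found elsewhere in mm9. Such a window was in 20.1% of KLF3, 23.5% of ΔDL and 22.8% of DBD LTR peaks, against 9.19%, 13.95% and 14.8% of the others. More than 50% of the windows were repeated in only 2, 7 and 4 LTR peaks. LTR peaks lay on chromosome X or Y in 3.55%, 7.32% and 9.93%, and other peaks in 3.23%, 5.89% and 6.46%.

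The highest LTR peak for KLF3 was the ORR1C1 copy in intron 3 of Gipc2 (chr3:151785631-151786031), with 1024 KLF3, 676 ΔDL and 89.9 DBD tags. The replicate lists held it with 59 and 126 tags for KLF3 and with 8 and 54 for ΔDL, and neither DBD list did. An RMER17C copy nearest Med13l, a gene for a Mediator kinase module subunit, had 962, 781 and 124 tags, and an ORR1A2 copy in the last intron of Disc1, shown above with ACACCC at 2 places, had 917, 644 and 58.1 tags. Neither was called in a DBD replicate. For ΔDL the highest were an MLT1B-int copy nearest Papss1 (709 KLF3, 1342 ΔDL and 154 DBD tags), an RMER6C copy on chromosome 18 nearest Ctnna1, the αE-catenin gene (564, 982 and 21.7 tags), and an MT2B copy in intron 9 of Psmd4 (744, 955 and 59.7 tags). Each of these 6 peaks was lower in DBD than in both other constructs.

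The highest DBD peaks were called in all 6 replicate lists. The MTD copy nearest Fam181b (chr7:101305357-101305757) had 380.0 KLF3, 734 ΔDL and 498 DBD tags and was called with 41 to 54 tags in all 6 replicate lists. An RMER17A-int copy nearest Gsdmc had 242, 639 and 402 tags, and an ORR1A0-int copy on chromosome X nearest Gm14374 had 300.2, 537 and 407 tags, with 37.9% of its windows repeated elsewhere. A MER77 copy nearest 9130024F11Rik had 246, 639 and 377 tags.

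Among peaks whose log2 height reached 8 in the higher construct, the largest differences for ΔDL above KLF3 were at an RMER12 copy nearest 2810407C02Rik (2.48, or 1.42 scaled), which no KLF3 or DBD replicate list held, an IAPEz-int copy on chromosome 18 nearest Cbln2 (1.75, with 42.7% of windows repeated) and a MER67C copy nearest 1700128A07Rik (1.72). The largest below KLF3 were at an LTR33 copy nearest Fam43a (−2.79, 338 against 48.8 tags), an MTD copy nearest Itpkb (−2.13) and an MTEa copy in intron 7 of Khdrbs3 (−2.01). For DBD the largest above KLF3 were an MT2B2 copy in intron 1 of Acacb (1.24, 298 against 126 tags), the RMER6-int copy nearest Manea shown above (0.92, 304 against 161) and an ORR1D2-int copy nearest Cts3 (0.91, 329 against 175). The Acacb peak was called with 39 tags in DBD replicate 2 and was not in the replicate 1 list. The Manea and Cts3 peaks were called in all 6 replicate lists.

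Among peaks with the same minimum height, the largest differences of DBD below KLF3 rested on few DBD tags, and lower peaks reached −6.95 in ORR1B2 and −5.44 in RLTR17. The RMER15 copy nearest 4930449E01Rik, shown above with an AP-1 match on either side of a CCACCC, rested on 18 and 33 tags in the lists of KLF3 and had 298 KLF3, 197 ΔDL and 8.52 DBD tags as heights (−5.13). The nearest whole counts, after removal of a small offset that the logged heights were assumed to carry, were 69 KLF3 tags and 1 DBD tag. By these counts DBD was at 2.10% of KLF3 after scaling, with an exact 95% interval of 0.0525 to 12.1% for counting error. This is a ratio of counts and not of the printed heights. The MTEa copy in Khdrbs3 (−4.91) had 131 and 3 counted tags and a ratio of 3.33% (0.677 to 9.93). These peaks were picked for their difference, so the intervals describe the precision only.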

How the data were processed

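Peak lists of V5 ChIP-seq in rescued Klf3-/- MEFs were used: 6 replicate lists, 3 merged lists and a table of all peaks. Per the submitters' processing notes and the methods, the authors aligned reads to mm9 with Bowtie2 2.0.0 and called and annotated peaks with HOMER 4.1 on each replicate against its input. The deposited peak scores are a signal that the authors scaled to 100 M tags, and heights are log2 values of tags in 400 bp that the authors counted in both replicates together. The deposited G+C content is a fraction, and the deposited conservation score averages PhastCons over a peak. An LTR peak has LTR as the repeat class in its detailed annotation.

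Each list was compared with its own intronic and intergenic peaks outside LTRs. Motif matches were read from mm9 on both strands, for KLF in 100 bp and for others in 200 bp around the centre. The computed G+C content matched the deposited one within 0.0001 at all but 2 of 31318 peaks. Peaks with at least 1 bp in common were called overlapping. Differences between constructs used exact permutation tests over the 6 lists, and LTR against other peaks used exact sign-flip tests, with Benjamini-Hochberg adjustment. Both treat the 6 lists as separate units, although the lists share peaks. Heights combine the replicates and were not tested.

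The peaks named were the 3 highest LTR peaks of each merged list, the 3 with the largest lowest height over all constructs, and the 3 largest differences from KLF3 in each direction among peaks of at least 8 on the log2 scale. One of these peaks is not reported here. The subfamilies named were the 8 with most sites and those with at least 5 peaks in a single merged list whose share differed over 3-fold. RMER6C was named after its values were seen. The members, lists and tests were chosen with earlier results of these data known. Alternatives were other denominators, windows, filters, scaling, the upper 50% of peaks by score, the replicate block and leaving out each list. The code was tested on simulated data with known answers. Versions were scipy 1.17.1, pandas 2.3.3, numpy 2.4.6, numba 0.67.0, pysam 0.24.0 and Python 3.11.15.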

Additional observations from a re-analysis of the deposited data

How the results depend on the processing

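Of 202 alternative values for 36 results, 182 kept their direction, their side of 0.05 or their size, 10 changed sign and 10 moved. Some of the 182 could not change. The replicate block left each difference between constructs as it was, and so did leaving out a list of the construct not compared. The permutation tests between constructs could not reach 0.05. A difference that shrank but kept its sign counted as kept, so the 182 is not a measure of robustness. Among intronic and intergenic peaks only, the LTR share of DBD minus KLF3 was −0.0600 points. The ERV1 share of ΔDL minus KLF3 was −0.434 points in the upper 50% of peaks by score. In the whole 400 bp the KLF match difference was 0.215 points. Scaling to the peaks called for all 3 constructs made the median differences −0.23 for ΔDL and −0.33 for DBD, and the counts 5 sites higher and 273 lower in ΔDL and 1 higher in DBD. With a height of at least 8, where sites high in KLF3 or ΔDL remain, the medians were 0.395 for ΔDL and −2.905 for DBD, and the counts 81 higher and 22 lower in ΔDL and 1 higher and 132 lower in DBD. In the upper 50% by score, 22.3% of ΔDL and 26.3% of DBD LTR peaks overlapped a KLF3 peak. The cause of these changes was not tested.

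With the replicate number as a block, as the lists are numbered, the exact p was 0.167 for the LTR share (the smallest the 36 assignments allow), and 0.167 for MaLR, 0.333 for ERVK, 0.167 for ERVL and 0.833 for ERV1; nothing else says that the numbers pair the lists. Leaving out each list in turn gave LTR share differences from KLF3 of 0.611 to 1.45 points for ΔDL and 0.883 to 1.72 for DBD, ERV1 differences of −0.0512 to 0.672 and −0.297 to 0.799, and AP-1 differences of 1.71 to 3.16 points. With 5 lists the smallest sign-flip p is 0.0625. ΔDL replicate 1 had 1.77 M tags, a median of 6 tags in an LTR peak and 868 LTR peaks, against 1619 LTR peaks in replicate 2. Whether depth set the size of the merged ΔDL list was not tested.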
